A study of Mus musculus with 6 samples.

Results

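The transcripts of 9 genes used to mark cDC2s, monocytes and macrophages were followed in sorted cDC1s. The genes, *Sirpa*, *Cd4*, *Cd300a*, *Tmem176a*, *Tmem176b*, *Lyz2*, *Adgre1*, *Cd14* and *Cfp*, were chosen by name and are 9 of the 54532 gene identifiers counted. All 9 had enough reads to be tested. RNA was sequenced from cDC1FL cells, which are cDC1s grown from mouse bone marrow for 8 days with 80 ng/mL FLT3L. The 3 control libraries (fl/fl 1, 2 and 3) carry floxed *c-Jun* and *JunB* alleles without a Cre. The 3 mutant libraries (Δ/Δ 1, 2 and 3) carry the same floxed alleles and *Itgax*-Cre, in which the promoter of *Itgax*, the gene of CD11c, drives the recombinase, so that deletion starts only once a cell expresses CD11c. Both groups are on a mixed 129Sv × C57BL/6 background, and the study used adult females and males, without stating which gave the marrow of each library. The labels do not say whether the libraries of a group came from separate mice, while a figure legend of the study describes its RNA-seq samples as individual mice. The sort took CD24+ CD11c+ cells without B220, CD115 or CD172a. CD172a is the SIRPα protein that *Sirpa* encodes, so 1 of the 9 genes codes for a protein that the gate excluded.

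cDC1s and cDC2s are sister lineages of conventional dendritic cells. cDC1s depend on IRF8 and BATF3 and specialise in cross-presentation to CD8 T cells, whereas cDC2s depend more on IRF4, KLF4 and ZEB2 and prime CD4 T cells. SIRPα separates cDC2s from cDC1s in most tissues, CD4 and F4/80, the product of *Adgre1*, are found on subsets of cDC2s, and CD14 and lysozyme are typical of monocytes and macrophages. c-Jun and JunB are AP-1 subunits, which bind DNA as dimers at the AP-1 site TGACTCA.

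Depth was even, with 21693217 to 26788296 reads on genes per library. The targeted genes were checked first. *Jun* had 70.9, 52.4 and 63.1 CPM (counts scaled to the reads on genes of a library, after TMM) across fl/fl 1 to 3 and 48.1, 44.2 and 60.4 CPM across Δ/Δ 1 to 3. *Junb* had 314, 274 and 413 CPM across fl/fl 1 to 3 and 110, 171 and 211 CPM across Δ/Δ 1 to 3. The genotypes overlapped for *Jun* and did not for *Junb*, and neither passed the quasi-likelihood test of edgeR, with p-values adjusted over 12894 genes by the Benjamini-Hochberg method (log2 fold change −0.29, adjusted p = 0.345, and −1.02, adjusted p = 0.0729). The stretch that Cre cuts out of either gene is not given in the sources used, so whole-gene reads do not measure deletion. The Δ/Δ libraries differed more among themselves than the fl/fl libraries, with a chi-square per degree of freedom of 30.5 to 42.3 against 6.77 to 11.3 between pairs of libraries.

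The promoter windows of the genes were read for the AP-1 site because the deleted factors bind it. RefSeq windows on GRCm38.p6, 250 bases before to 50 after each start, were read for 5 of the 9 genes. These were 8 windows in all (3 for *Tmem176b*, 2 for *Tmem176a* and 1 each for *Cd300a*, *Lyz2* and *Cfp*). No entry was found for *Sirpa*, *Cd4* or *Adgre1*. Windows of *Cd14* were left out of these 8, and no result is given for its promoter. On both strands, none of the 8 windows held the AP-1 site TGACTCA, present in 5.2% of all 32851 windows, the cAMP response element TGACGTCA (1.79%), the PU.1 site GAGGAAGT (3.2%), CCAAT (37.4%) or TATAAA (13.6%). A stretch of 7 bases within 1 mismatch of TGACTCA is common and was present in 53.0% of all windows. Among the genes here, *Lyz2* had 3 such stretches in its window, *Cfp* had 2 and *Cd300a* had 0. The parts of these 3 windows that lie upstream of annotated exons follow, read 5′ to 3′ on the strand of the gene, with the stretches within 1 mismatch of the AP-1 site in capitals. They show a promoter of a gene with separated genotypes (*Cd300a*, chr11:114889791-114890040, plus strand), that of the most abundant gene (*Lyz2*, chr10:117282322-117282522, minus strand) and that of the gene with the smallest spread among fl/fl libraries (*Cfp*, chrX:20931556-20931805, minus strand).
Cd300a: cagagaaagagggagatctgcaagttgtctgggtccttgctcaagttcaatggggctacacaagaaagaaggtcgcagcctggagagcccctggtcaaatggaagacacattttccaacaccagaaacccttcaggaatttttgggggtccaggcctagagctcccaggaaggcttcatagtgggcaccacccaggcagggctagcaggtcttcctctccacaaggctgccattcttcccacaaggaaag
Lyz2: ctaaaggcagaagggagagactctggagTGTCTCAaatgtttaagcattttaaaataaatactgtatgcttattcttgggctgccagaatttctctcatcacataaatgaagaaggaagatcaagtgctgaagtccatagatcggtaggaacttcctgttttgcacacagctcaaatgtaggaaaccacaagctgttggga
Cfp: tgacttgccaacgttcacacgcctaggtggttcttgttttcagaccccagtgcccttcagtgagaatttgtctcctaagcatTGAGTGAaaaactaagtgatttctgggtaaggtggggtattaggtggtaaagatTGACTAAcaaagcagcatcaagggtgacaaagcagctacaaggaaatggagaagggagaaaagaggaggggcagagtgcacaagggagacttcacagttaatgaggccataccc
The upstream part of *Cd300a* held none of these stretches, that of *Lyz2* held 1, and that of *Cfp* held 2. A near match is a description of letters and was not tested for binding.

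Of the 9 genes, *Cd4* and *Adgre1* were higher in Δ/Δ than in fl/fl cDC1FL cells and no gene passed the test in the other direction. These are 2 of 9 past an adjusted p of 0.05, beside 3.88% of all tested genes in either direction and 2.03% higher in Δ/Δ. *Cd4* alone also had a log2 fold change of at least 1, beside 1.86% of all tested genes. In *Cd4*, *Cd300a* and *Adgre1*, every Δ/Δ library lay above every fl/fl library, 3 of 9 beside 13.7% of all tested genes in that direction. The fitted log2 fold change was above 0 for 7 of 9 genes, with a median of 0.84, beside 50.3% above 0 and a median of 0.0018 over all tested genes. An unadjusted p under 0.05 was reached by 6 of 9, all higher in Δ/Δ, beside 10.3%. In bulk RNA, a change in the number of cells of a type and a change in RNA per cell cannot be told apart.

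**Figure D1:**
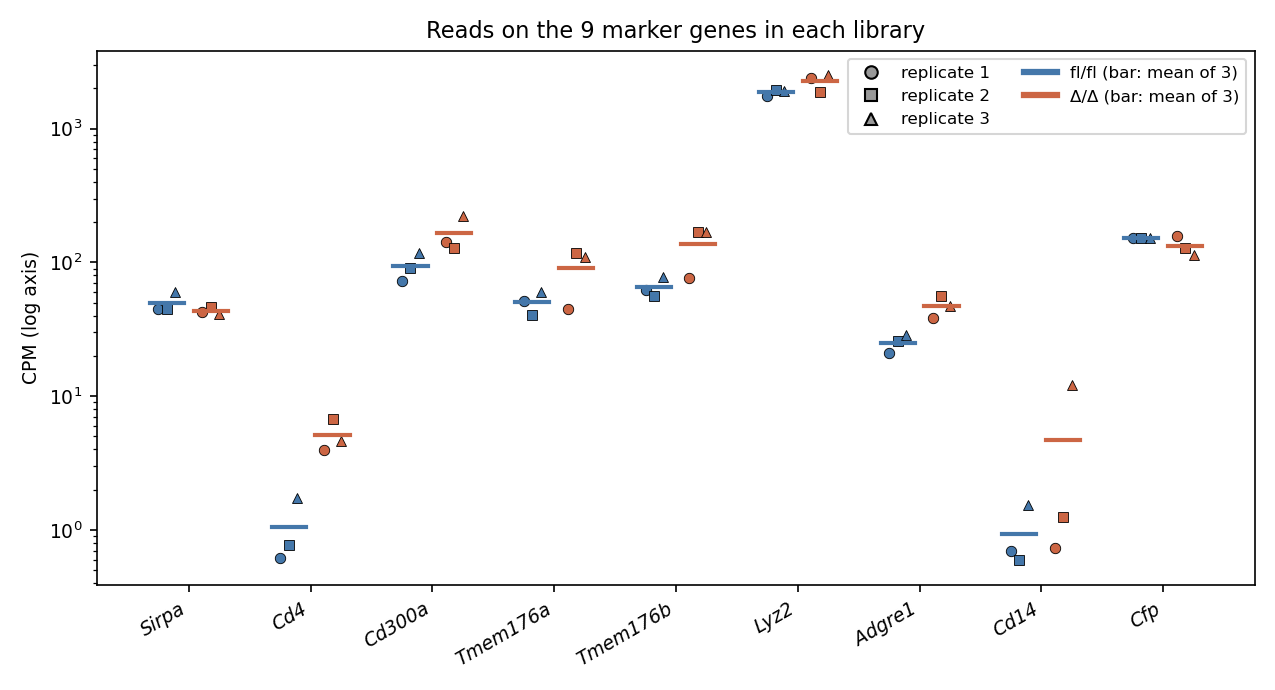
CPM of the 9 genes in each library on a log axis, blue for fl/fl and orange for Δ/Δ, with circles, squares and triangles for replicates 1, 2 and 3 and a horizontal bar for the mean of 3 libraries. The genotypes are separate for *Cd4*, *Cd300a* and *Adgre1*, Δ/Δ 1 lies with the fl/fl libraries for both *Tmem176* genes, and Δ/Δ 3 stands alone for *Cd14* at 12.1 CPM.

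Among the surface receptors, *Sirpa* (chromosome 2, 129592835 to 129632228) encodes the inhibitory receptor that binds CD47 on other cells. It was at 44.7, 45.2 and 60.5 CPM across fl/fl 1 to 3 and at 42.3, 46.8 and 40.8 CPM across Δ/Δ 1 to 3. The genotypes overlapped, and fl/fl 3 was the highest library. Its log2 fold change was −0.21 (standard error 0.13, adjusted p = 0.430 by edgeR), and stayed between −0.29 and −0.05 over 12 other settings with none past the limit. The transcript of the protein excluded by the sort was measured at 928 to 1427 reads per library in both genotypes. Of its relatives and partners, 0 of 4 tested genes passed edgeR's test, 2 had an unadjusted p under 0.05 (*Sirpb1a* and *Ptpn11*), and DESeq2 and limma-voom called 0. The 4 tested were *Sirpb1a* (log2 fold change −1.18, adjusted p = 0.187), the ligand *Cd47*, and *Ptpn6* and *Ptpn11*, the phosphatases SHP-1 and SHP-2 that SIRPα recruits (log2 fold changes 0.16, 0.13 and 0.22). The other 2, *Sirpb1b* and *Sirpb1c*, had too few reads to test.

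*Cd4* (chromosome 6, 124864692 to 124888221, minus strand) encodes the coreceptor for MHC class II, also present on a subset of cDC2s in mouse spleen. It was rare, with 0.617, 0.778 and 1.74 CPM across fl/fl 1 to 3 and 3.97, 6.76 and 4.66 CPM across Δ/Δ 1 to 3, from 16, 21 and 41 reads and from 98, 145 and 106 reads. Every Δ/Δ library was above every fl/fl library, and the mean was 5.13 ± 1.45 against 1.04 ± 0.606 CPM (SD, n = 3 each). *Cd4* rose by a log2 fold change of 2.30 (standard error 0.43, adjusted p = 0.0339 by edgeR). The call was kept in 9 of 12 other settings, and the log2 fold change ran from 2.03 to 2.87 over them. It was lost without fl/fl 1 (adjusted p = 0.144), without fl/fl 2 (0.172) and without Δ/Δ 3 (0.0712). *Cd3d*, *Cd3e*, *Cd3g* and *Trac*, encoding parts of the T cell receptor complex, were at 0 to 0.445 CPM in all 6 libraries, named here after their values were seen. *Lck*, a kinase gene of T cells in the same list, was at 0.636 to 1.48 CPM in fl/fl libraries and 0.608, 3.03 and 1.36 CPM across Δ/Δ 1 to 3, highest in Δ/Δ 2 like *Cd4*. Their part in the level of *Cd4* was not tested. The summed level of 9 T and NK cell markers was 1.86 to 2.48 CPM in the fl/fl and 1.70 to 4.29 CPM in the Δ/Δ libraries.

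The nearest gene to *Cd4* was also higher in Δ/Δ cells. *Gpr162*, an orphan receptor gene that ends 708 bases from *Cd4* on the same strand, was at 7.82, 5.82 and 8.82 CPM across fl/fl 1 to 3 and at 12.6, 24.7 and 22.9 CPM across Δ/Δ 1 to 3. Its libraries did not overlap between genotypes (log2 fold change 1.42 with a standard error of 0.28, adjusted p = 0.0394 by edgeR). The call was lost without fl/fl 1, fl/fl 2, fl/fl 3, Δ/Δ 2 or Δ/Δ 3 (adjusted p = 0.176, 0.178, 0.0996, 0.0591 and 0.0995). *Lag3*, a CD4 relative 16139 bases away on the other side, overlapped between genotypes (3.41 to 4.70 CPM in fl/fl and 2.15 to 4.38 CPM in Δ/Δ). Of the CD4 relatives and regulators, 0 of 5 passed edgeR's test or limma-voom, and 1 passed DESeq2 and had an unadjusted edgeR p under 0.05. This was *Zbtb7b*, encoding the CD4-lineage factor ThPOK, at 108 to 116 CPM in fl/fl and 132 to 145 CPM in Δ/Δ samples (log2 fold change 0.28, edgeR adjusted p = 0.0564). *Runx3* and *Runx1*, whose products bind the *Cd4* silencer in T cells, had log2 fold changes of −0.14 and 0.12.

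*Cd300a* (chromosome 11, 114890041 to 114904654) encodes an inhibitory receptor for phosphatidylserine and phosphatidylethanolamine. It was at 73.1, 90.8 and 118 CPM across fl/fl 1 to 3 and at 143, 129 and 223 CPM across Δ/Δ 1 to 3. The genotypes did not overlap, with Δ/Δ 3 highest and the gap between fl/fl 3 and Δ/Δ 2 narrow. The test was not passed (log2 fold change 0.81 with a standard error of 0.24, adjusted p = 0.129 by edgeR). It was passed in 3 of 12 other settings, with DESeq2 (adjusted p = 0.00321), with no filter on low counts (0.0494) and with a term for the replicate number (0.0268), where 7.47%, 3.31% and 3.23% of all tested genes passed. Of its family, 1 of 6 tested genes passed edgeR's test. This was *Cd300c2*, encoding an activating member, with 52.5, 51.9 and 64.9 CPM across fl/fl 1 to 3 and 83.0, 92.9 and 128 CPM across Δ/Δ 1 to 3 (log2 fold change 0.84, standard error 0.17, adjusted p = 0.0442). Its call was lost without fl/fl 1, fl/fl 2, fl/fl 3 or Δ/Δ 3 (adjusted p = 0.209, 0.205, 0.0856 and 0.0524). *Cd300c*, named after its values were seen, was at 3.93 to 11.1 CPM in fl/fl and 15.8 to 48.2 CPM in Δ/Δ libraries without passing edgeR's test (log2 fold change 2.23, adjusted p = 0.0634), and passed with DESeq2 and with no filter. *Cd300lg* overlapped between genotypes (35.8 to 43.1 and 37.3 to 62.6 CPM). The summed level of the 7 relatives was 97.5 to 128 CPM in fl/fl and 159 to 249 CPM in Δ/Δ libraries. Genes of this family share sequence, and only uniquely mapped reads were counted, so their levels are uncertain to that extent. The flanking *Gprc5c* and *Cd300lb* overlapped between genotypes.

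*Adgre1* (chromosome 17, 57358691 to 57483527) encodes F4/80, an adhesion GPCR used to mark macrophages. It was at 20.96, 26.0 and 28.4 CPM across fl/fl 1 to 3 and at 38.3, 56.0 and 47.2 CPM across Δ/Δ 1 to 3. All Δ/Δ libraries lay above all fl/fl libraries, with means of 47.2 ± 8.83 and 25.1 ± 3.81 CPM (SD, n = 3 each). *Adgre1* rose by a log2 fold change of 0.91 (standard error 0.17, adjusted p = 0.0317 by edgeR). Its call was kept in 8 of 12 other settings, and the log2 fold change ran from 0.77 to 1.04 over them. It was lost without fl/fl 1, fl/fl 2, fl/fl 3 or Δ/Δ 3 (adjusted p = 0.143, 0.148, 0.0756 and 0.0774). The other genes of its group, *Adgre5* and *Adgre4*, did not pass edgeR, DESeq2 or limma-voom (log2 fold changes 0.27 and −0.51), neither had an unadjusted edgeR p under 0.05, and the genotypes overlapped in both. Of the flanking genes, *Vav1* had 263 to 284 CPM in fl/fl and 269 to 295 CPM in Δ/Δ libraries, and *Vmn2r120* had no read in any library.

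*Cd14* (chromosome 18, 36725067 to 36726798) encodes the coreceptor that hands lipopolysaccharide to TLR4 and MD-2. It was at 0.694, 0.593 and 1.53 CPM across fl/fl 1 to 3 and at 0.730, 1.26 and 12.1 CPM across Δ/Δ 1 to 3. A single library, Δ/Δ 3, stood apart with 276 reads, while Δ/Δ 1 and Δ/Δ 2, with 18 and 27 reads, lay within the range of the fl/fl libraries at 16 to 36 reads. The log2 fold change of 2.33 (standard error 1.06, adjusted p = 0.287 by edgeR) fell to 0.09 without Δ/Δ 3 (adjusted p = 0.965), and no setting passed. Its SD over the Δ/Δ libraries on the log2 scale, 2.08, was larger than that of 99.5% of tested genes. Of the LPS receptor list, 0 of 6 tested genes passed edgeR's test, DESeq2 or limma-voom, and 1 (*Ticam2*) had an unadjusted edgeR p under 0.05. *Tlr4* had 26.9 to 32.6 CPM in fl/fl and 24.2 to 33.3 CPM in Δ/Δ libraries, and *Ly96*, encoding MD-2, 2.20 to 3.08 and 2.14 to 2.29 CPM. *Lbp* had no read in any library. The adaptor genes *Myd88*, *Ticam1*, *Tirap* and *Ticam2* had log2 fold changes of 0.28, −0.07, −0.08 and 0.77. *Ticam2* overlapped between genotypes, at 1.77 to 3.08 CPM in fl/fl and 4.54, 2.84 and 5.19 CPM across Δ/Δ 1 to 3. Δ/Δ 3 stood apart in none of these genes as it did in *Cd14*.

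*Tmem176a* and *Tmem176b* encode related channel-like proteins of intracellular membranes, abundant in cDC2s and monocytes. *Tmem176a* (chromosome 6, 48840919 to 48847071, plus strand) was at 51.4, 40.7 and 60.4 CPM across fl/fl 1 to 3 and at 45.1, 118 and 111 CPM across Δ/Δ 1 to 3. *Tmem176b* (chromosome 6, 48833818 to 48841496, minus strand) had 61.8, 55.9 and 77.9 CPM across fl/fl 1 to 3 and 77.1, 168 and 170 CPM across Δ/Δ 1 to 3. In both genes Δ/Δ 2 and Δ/Δ 3 were high and Δ/Δ 1 lay among the fl/fl libraries, so the genotypes overlapped. Neither passed edgeR's test (log2 fold changes 0.84, standard error 0.34, adjusted p = 0.243, and 1.08, standard error 0.30, adjusted p = 0.0988). Without Δ/Δ 1 both passed, at log2 fold changes of 1.17 (adjusted p = 0.00666) and 1.37 (adjusted p = 0.00312), where 9.96% of tested genes passed in either direction against 3.88% with all libraries. The same library was the lowest of the Δ/Δ group in 5 of the 9 genes, beside 34.4% of all tested genes. The pair was also the closest of all 36 pairs of these 9 genes, with a root mean square difference of 0.16 between their log2 profiles over 6 libraries. The genes overlap by 578 bases on opposite strands, of which 81 bases are exonic in both. The kit was strand-specific, but the strand setting of the counts is not stated in the sources used, so reads in those 81 bases cannot be assigned with certainty. They are few beside exon lengths of 3810 and 2371 bases.

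*Lyz2* (chromosome 10, 117277331 to 117282321, minus strand) encodes lysozyme M, the bacteriolytic enzyme of myeloid cells. It was at 1759, 1937 and 1919 CPM across fl/fl 1 to 3 and at 2376, 1893 and 2517 CPM across Δ/Δ 1 to 3. The genotypes overlapped through Δ/Δ 2, which lay inside the fl/fl range while Δ/Δ 1 and Δ/Δ 3 were above it. The difference was small (log2 fold change 0.27 with a standard error of 0.11, adjusted p = 0.233 by edgeR) and passed only without Δ/Δ 2 (log2 fold change 0.39, adjusted p = 0.0267), where 5.43% of tested genes passed. Its neighbour and paralog *Lyz1*, 5475 bases away, had 9.19 to 11.1 CPM in fl/fl and 10.2 to 12.6 CPM in Δ/Δ samples (log2 fold change 0.13, adjusted p = 0.666). Reads that fit both copies equally were not counted, so both levels are uncertain to that extent. *Cst3*, encoding the protease inhibitor cystatin C, did not pass edgeR, DESeq2 or limma-voom either (7105 to 7472 CPM in fl/fl and 7376 to 9125 CPM in Δ/Δ libraries).

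*Cfp* (chromosome X, 20925454 to 20931555, minus strand) encodes properdin, the plasma protein that stabilises the alternative complement convertase. It was at 153, 152 and 153 CPM across fl/fl 1 to 3 and at 157, 129 and 113 CPM across Δ/Δ 1 to 3. The fl/fl libraries were almost equal, with an SD of 0.560 CPM, while Δ/Δ 1 lay above them and Δ/Δ 2 and 3 below. Its log2 fold change was −0.20 (standard error 0.11, adjusted p = 0.396 by edgeR), and it passed only without Δ/Δ 1 (log2 fold change −0.33, adjusted p = 0.0356). Of its complement partners and receptors, *Itgax*, encoding the CD11c chain of complement receptor 4, fell from 114, 128 and 153 CPM to 44.7, 55.1 and 69.0 CPM (log2 fold change −1.22 with a standard error of 0.17, adjusted p = 0.0147 by edgeR). Its call was lost without fl/fl 1, fl/fl 2 or fl/fl 3 (adjusted p = 0.0526, 0.0781 and 0.0505). *C3*, the substrate of the convertase and named after its values were seen, was at 0.339 to 1.07 CPM in fl/fl and 2.24 to 3.03 CPM in Δ/Δ libraries (adjusted p = 0.0615 by edgeR), and passed with DESeq2, limma-voom and no filter. *Cfb*, *Cfd* and *Cfi* had no read in any library, and the abundant *Itgb2* and *Cr1l* had log2 fold changes of −0.12 and 0.06.

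**Figure D2:**
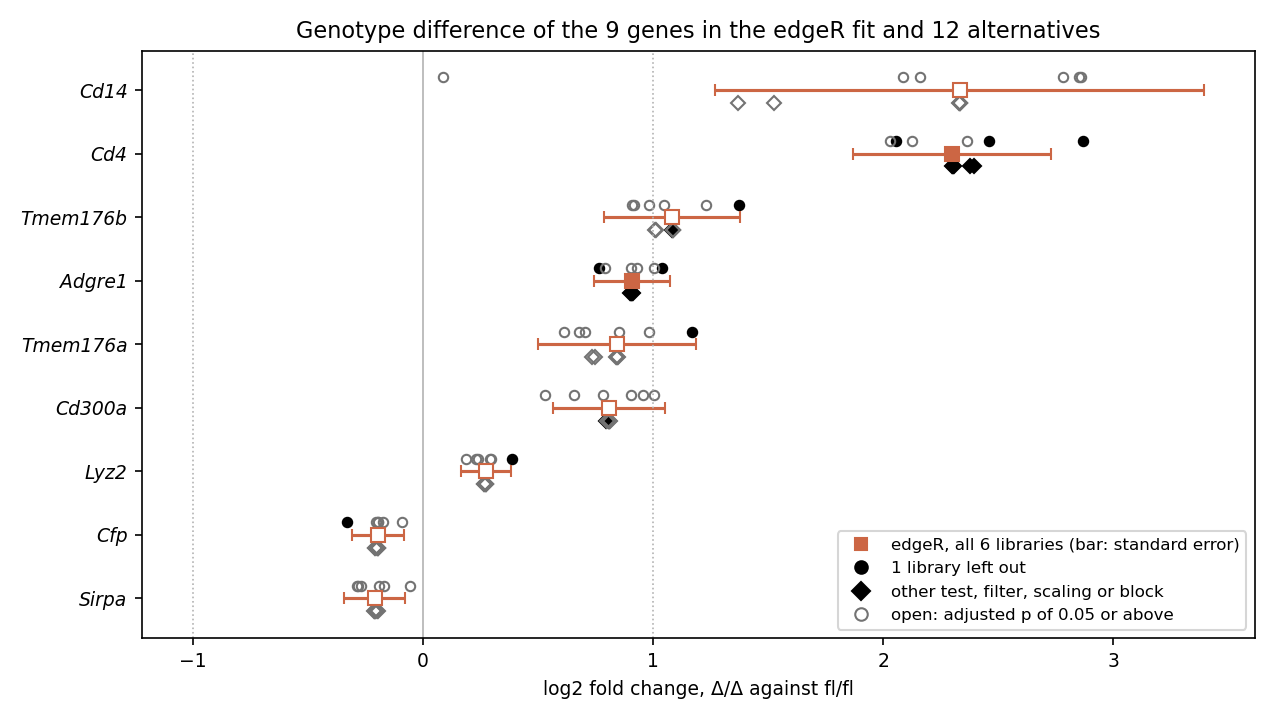
Log2 fold change of the 9 genes, Δ/Δ against fl/fl, with the edgeR estimate from all 6 libraries as a square with its standard error, the 6 fits with 1 library left out as circles above it, and 6 other tests, filters, scalings or a replicate term as diamonds below it. Open symbols are at an adjusted p of 0.05 or above, dotted lines mark a log2 fold change of 1 in either direction, and no gene changed sign, while *Cd14* dropped to 0.09 in 1 fit.

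**Figure D3:**
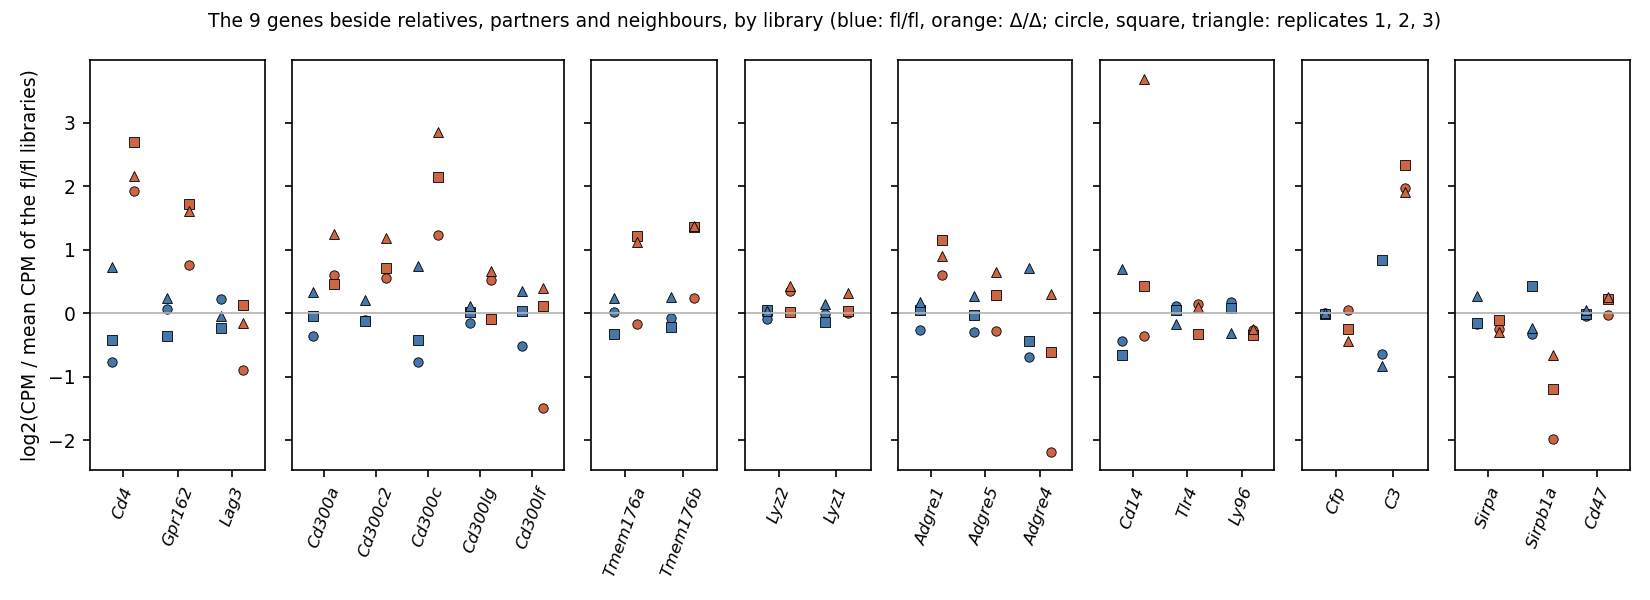
Levels of the 9 genes and of selected relatives, partners and neighbours, as log2 of the CPM over the mean CPM of the fl/fl libraries, blue for fl/fl and orange for Δ/Δ, with circles, squares and triangles for replicates 1, 2 and 3. All Δ/Δ libraries lie above all fl/fl libraries for *Cd4*, *Gpr162*, *Cd300a*, *Cd300c2*, *Cd300c*, *Adgre1* and *C3*, and below them for *Sirpb1a*. *Lyz1*, *Tlr4* and *Cd47* stay close to 0.

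Levels were set in order per length, as CPM per kilobase of annotated exon. In fl/fl libraries *Lyz2* was highest at 1422 ± 74.6, followed by *Cfp* at 87.9 ± 0.323, *Tmem176b* at 27.5 ± 4.81, *Cd300a* at 19.9 ± 4.79, *Tmem176a* at 13.3 ± 2.58, *Sirpa* at 10.2 ± 1.83, *Adgre1* at 7.76 ± 1.18, *Cd14* at 0.541 ± 0.296 and *Cd4* at 0.259 ± 0.150 (CPM per kilobase, SD, n = 3). *Tmem176b*, *Cd300a*, *Tmem176a* and *Sirpa* each overlapped the next in this order, as did *Cd14* and *Cd4*. In Δ/Δ libraries the order of the means was the same except that *Adgre1*, at 14.6 ± 2.73, stood above *Sirpa*, at 8.82 ± 0.631, without overlap. The ranges of *Cfp*, *Tmem176b*, *Cd300a*, *Tmem176a* and *Adgre1* each overlapped the next there, as did *Cd14* and *Cd4*. *Cd14* was above *Cd4* only in Δ/Δ 3 (7.01 against 1.16 CPM per kilobase). *Lyz2*, at 1719 ± 249, stayed apart from all others.

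The spread within a genotype was not shared evenly over libraries. Of the fl/fl libraries, fl/fl 3 was the highest in 8 of 9 genes, beside 35.6% of all tested genes. In the Δ/Δ group, Δ/Δ 2 and Δ/Δ 3 were each the highest in 4 genes. The SD of log2 CPM was larger in Δ/Δ than in fl/fl libraries for 7 of 9 genes (77.8%), beside 70.4% of all tested genes. *Sirpa* and *Cd4* were the exceptions, with SDs of 0.10 and 0.39 in Δ/Δ against 0.25 and 0.73 in fl/fl libraries.

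Genes with the most similar profile over the 6 libraries were named by the smallest root mean square difference of centred log2 CPM among 9614 to 9615 other genes with a mean of at least 5 CPM. This is a description, as all profiles share the same libraries. *Cd4* was most like *Cd209a* (0.20), which encodes a C-type lectin of cDC2s, with 39.1, 39.0 and 69.2 CPM across fl/fl 1 to 3 and 196, 268 and 239 CPM across Δ/Δ 1 to 3, and next like *Ms4a4a* (0.32). *Adgre1* was most like *Eepd1* (0.08) and *Cnr2* (0.08), the gene of cannabinoid receptor CB2, and *Cd300a* most like *Txnip* (0.07) and *Tent5a* (0.09). *Tmem176a* was closest to *Dusp2* (0.10) and *Fcrla* (0.11), and *Tmem176b* to *AC149090.1* (0.07) and *Zfp36* (0.08). *Dusp2* and *Zfp36* are rapidly induced genes, and Δ/Δ 1 was the lowest Δ/Δ library in both. *Cd14* had no close match, with *Fos* (0.78) and *Gm5431* (0.81) nearest. *Fos*, another AP-1 subunit and immediate early gene, had 106, 236 and 377 CPM across Δ/Δ 1 to 3 and 76.1, 52.1 and 136 CPM in the fl/fl libraries, and was highest in the same library as *Cd14*. *Lyz2* was closest to *Ints6l* and *Farp2*, *Cfp* to *Tpi1* and *Brcc3*, and *Sirpa* to *Etfdh* and *0610037L13Rik*, all within 0.07.

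Other markers of cDC2s, monocytes and macrophages were read beside these genes. Of 14 further cDC2 markers, all tested, edgeR and limma-voom called 2 as higher in Δ/Δ libraries, with a median log2 fold change of 0.67. *Cd209a* rose by 2.25 on the log2 scale (standard error 0.25, adjusted p = 0.00556 by edgeR) and kept its call without any 1 library. *Klf4*, a transcription factor needed by a subset of cDC2s, rose from 71.1, 78.7 and 98.2 CPM to 151, 133 and 203 CPM (log2 fold change 0.97 with a standard error of 0.18, adjusted p = 0.0321 by edgeR), a call lost without fl/fl 1, fl/fl 2, fl/fl 3 or Δ/Δ 3 (adjusted p = 0.158, 0.166, 0.0558 and 0.0502). *Irf4*, named after its values were seen, had 27.4 to 43.9 CPM in fl/fl and 55.6 to 120 CPM in Δ/Δ libraries without passing edgeR's test (log2 fold change 1.26, adjusted p = 0.0699). DESeq2 and the fit with no filter called 4 of the 14, with *Irf4* and *Itgam*, the gene of CD11b, added, both higher in Δ/Δ. The summed level of the 14 genes, of which *Notch2* (log2 fold change −0.06) had the largest share, overlapped at 1124 to 1365 CPM in fl/fl and 1357 to 1796 CPM in Δ/Δ libraries.

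Monocyte markers split in direction. *Ccr2*, encoding the receptor for CCL2, rose from 659, 812 and 909 CPM to 1391, 1501 and 1723 CPM (log2 fold change 0.96 with a standard error of 0.13, adjusted p = 0.0130 by edgeR), a call lost without fl/fl 2 (adjusted p = 0.0813). *Plac8* fell from 122, 123 and 106 CPM to 31.2, 29.2 and 55.0 CPM (log2 fold change −1.61, adjusted p = 0.0161). Its call was lost without fl/fl 1, fl/fl 2 or fl/fl 3 (adjusted p = 0.0940, 0.0928 and 0.0515). Some other genes of the list were low in both genotypes, and are named here after their values were seen. *Ly6c2* had 2.15 to 4.16 CPM in fl/fl and 1.58 to 2.52 CPM in Δ/Δ libraries. *Fcgr1* had 1.00 to 1.06 and 0.528 to 1.17 CPM, and *Vcan* at most 0.347 CPM in any library. *Fn1* (0 to 0.170 and 0.365 to 1.54 CPM) and *F13a1* (0 to 0.254 and 0.324 to 1.21 CPM) were higher in every Δ/Δ library. Both had too few reads for the main edgeR fit. *Treml4* was lower in every Δ/Δ library (1.22 to 2.46 and 0.649 to 1.10 CPM). edgeR and limma-voom called 3 genes of the list, and DESeq2 called 4, with *Fn1* added. At an unadjusted p under 0.05 edgeR had 2 higher and 2 lower. The summed level of the 15 genes, most of it *Ccr2*, was 1098 to 1339 CPM in fl/fl and 1764 to 2147 CPM in Δ/Δ libraries.

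No macrophage or neutrophil marker passed the edgeR test. Of 8 tested among 16 macrophage genes and 6 tested among 13 neutrophil genes, 0 were past an adjusted p of 0.05. At an unadjusted p under 0.05 edgeR had 4 macrophage genes (1 higher, 3 lower) and 2 neutrophil genes (1 higher, 1 lower). limma-voom called 0 of either list, and DESeq2 called 2 macrophage genes (*Timd4* higher and *Spic* lower) and the neutrophil list's *Csf3r* (higher). The summed macrophage level was 121 to 153 CPM in fl/fl and 97.1 to 122 CPM in Δ/Δ libraries, mostly *Cd68*, with *Apoe* and *Timd4* next, and 8 of its genes were under 1 CPM in every library. *Marco*, *Vsig4* and *Mertk* had at most 0.551 CPM in any library, named after their values were seen. The neutrophil sum was 5.28 to 23.1 CPM in fl/fl and 3.28 to 13.003 CPM in Δ/Δ libraries, and *Ly6g* and *Elane* had no read. *Timd4*, the gene of a phosphatidylserine receptor, was at 1.58 to 3.77 CPM in fl/fl and 3.53 to 16.9 CPM in Δ/Δ libraries.

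The identity of the sorted cells was checked on cDC1 genes. *Wdfy4*, *Irf8* and *Naaa* were the most abundant of 16 cDC1 markers, and none of them passed edgeR's test. Of the 16, edgeR and limma-voom called 6, all lower in Δ/Δ. DESeq2 called 9, with *Wdfy4* and *Cd24a* also lower and *Cadm1* higher. The 4 with the largest change were *Xcr1* (log2 fold change −1.42, edgeR adjusted p = 0.00812), *Snx22* (−0.86, 0.0375), *Tlr3* (−0.77, 0.0226) and *Ifi205* (−0.60, 0.0279). With fl/fl 1 or fl/fl 2 left out these 4 were at adjusted p-values of 0.0501 to 0.149, *Snx22*, *Tlr3* and *Ifi205* were above 0.05 also without fl/fl 3 (0.130, 0.0885 and 0.0563), *Snx22* without Δ/Δ 2 (0.0602) and *Ifi205* without Δ/Δ 3 (0.0580). The summed cDC1 level was 13357 to 13805 CPM in fl/fl and 10610 to 12644 CPM in Δ/Δ libraries, without overlap. Of the genes behind the sort, *Itgax* fell, and *Cd24a*, *Ptprc*, *Csf1r* (encoding CD115, 3.58 to 6.53 and 5.64 to 6.80 CPM) and *Sirpa* did not pass edgeR's test. *Cd24a*, encoding CD24, was at 487 to 502 CPM in fl/fl and 366 to 429 CPM in Δ/Δ libraries without overlap (log2 fold change −0.30, adjusted p = 0.0605 by edgeR), and passed with DESeq2 and with no filter. Of 8 tested pDC genes, edgeR and limma-voom called 1, *Ccr9* (log2 fold change 1.41, edgeR adjusted p = 0.00333). DESeq2 and the fit with no filter called 3, with *Siglech* (7.78 to 10.7 CPM in fl/fl and 16.5 to 37.5 CPM in Δ/Δ libraries) and *Bst2*, which was lower in Δ/Δ. edgeR called 0 genes among the mature DC, B cell, T and NK cell, basophil and mast cell, and stem and progenitor markers. Of these, 2 had an unadjusted p under 0.05, both of the stem and progenitor list. Past the filter on low counts, only 1 of 7 basophil and mast cell and 2 of 9 T and NK cell genes were tested. DESeq2 called 3 basophil genes, higher in Δ/Δ, and *Cd34* of the progenitor list, lower, and limma-voom 0. These 3 basophil genes had too few reads for the main edgeR fit, and *Prss34* among them passed with no filter. Mature DC markers summed to 987 to 1305 CPM in fl/fl libraries and to 524, 2141 and 701 CPM in Δ/Δ 1, 2 and 3, and basophil and mast cell markers to 0.539 to 1.26 CPM and to 1.18, 17.6 and 2.99 CPM. Δ/Δ 2 was the highest library in both lists, and in *Cd4* and *Adgre1*. Without it both genes still passed, at log2 fold changes of 2.05 (adjusted p = 0.0483) and 0.77 (adjusted p = 0.0428). The part of other cells in the levels of the 9 genes was not tested beyond these values.

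**Figure D4:**
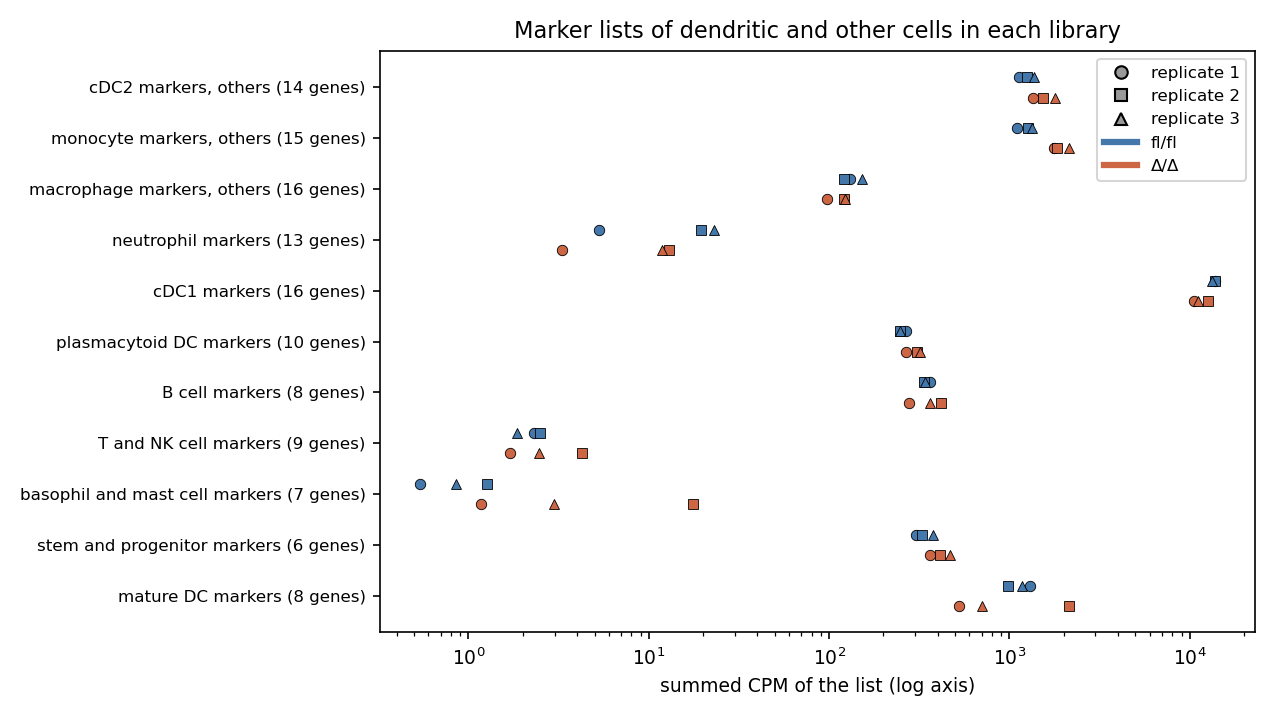
Summed CPM of 11 marker lists in each library on a log axis, blue for fl/fl and orange for Δ/Δ, with circles, squares and triangles for replicates 1, 2 and 3 and the number of genes of each list beside its name. The Δ/Δ libraries lie above the fl/fl libraries for the monocyte list (1764 to 2147 against 1098 to 1339 CPM) and below them for the cDC1 list, and Δ/Δ 2 stands apart for the mature DC and the basophil and mast cell lists.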

How the data were processed

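RNA-seq libraries of 3 fl/fl and 3 Δ/Δ cDC1FL samples were analysed. The authors deposited raw counts of reads per gene for each library. According to the methods, reads were aligned to mm10 with STAR 2.6.1a and Gencode vM19, and the processing notes of the submitters also list RSEM. Rows that name no gene (unmapped, multimapping, unassigned or ambiguous reads, 20.3 to 20.9% of the total) were left out. Of 54532 identifiers, 54495 were found in GENCODE M21 on GRCm38. Counts were tested with edgeR 4.0.16 in R 4.3.3 (filterByExpr, minimum count 10 and total 15, TMM, glmQLFit and glmQLFTest on genotype), adjusted over 12894 genes. CPM were TMM-scaled, and the prior count of log2 CPM was 2. PCR copies were not told apart.

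Alternatives were DESeq2 1.42.0 (size factors, Wald test), limma-voom (limma 3.58.1), no filter, a stricter filter (a mean of 1 CPM), a replicate term, other limits and each library left out. Steps were tested on simulated counts. Outside the 9 genes and *Jun* and *Junb*, the text names list genes past an adjusted p of 0.05 (the 4 with the largest change where more passed), the 3 most abundant of a list, those without reads, the 2 most alike genes of each of the 9 and flanking protein-coding genes. Some list genes are not reported here. The genes and lists were chosen with earlier results of these data known.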

Additional observations from a re-analysis of the deposited data

How the results depend on the processing

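Of 108 values of the 9 genes under 12 alternatives, 93 kept their direction and their side of the threshold, 8 passed anew, 7 no longer passed and 0 turned. The number of genes past the adjusted p was 2 in the edgeR fit, 2 with DESeq2's size factors, limma-voom and the stricter filter, 3 with DESeq2's Wald test and 4 with no filter, where 3.31% of all genes passed. It was 0 at an adjusted p limit of 0.01 (0.931% of all genes) and 3 at 0.1 (7.88%). With 1 library left out it ran from 0 to 5, with none past the limit when fl/fl 1, fl/fl 2 or Δ/Δ 3 was dropped, *Cd4* alone without fl/fl 3, *Cd4*, *Lyz2* and *Adgre1* without Δ/Δ 2, and 5 without Δ/Δ 1. With a log2 fold change of at least 1 as well, the number was 1 (1.86% of all genes) and rose to 2 with no filter (1.55%). It ran from 0 to 4 with 1 library left out, where 0.56 to 4.37% of all genes were called. Genes without overlap numbered 3, beside 26.0% of all tested genes in either direction, and ran from 3 to 6 with 1 library left out. The share of all genes was not computed for those smaller sets. Fewer libraries separate more easily, so the rise is not read as a result. The share of all tested genes past the adjusted p alone with 1 library left out ran from 0.716 to 9.96%, and the cause was not tested. A fit with the replicate number as a block gave 3 genes, with *Cd300a* added (adjusted p = 0.0268), and 1 with the fold limit, where 3.23% of all genes passed. Same-numbered libraries correlated at 0.09, −0.15 and 0.20 in their deviations from the genotype means, and differently numbered ones at −0.22 to 0.15. Deviations within a group of 3 are tied to each other, so these values cannot decide whether the numbers pair the libraries. The number of libraries and few reads on *Cd4* and *Cd14* limit these values.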
